A study of Mus musculus with 16 samples.

Results

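The EZH2 Y641F effect was measured in centroblasts, the dividing B cells of the germinal centre dark zone, by comparing 4 libraries of mutant centroblasts with 4 libraries of control centroblasts. These 8 libraries of the 16 in the series were chosen by their labels alone, and the comparison runs across all genes. Mutant mice had the genotype Ezh2(Y641F)fl/wt;Cγ1-cre, with 1 conditional Ezh2 allele that carries the lymphoma substitution Y641F, and control mice carried Cγ1-cre only. All mice were C57BL/6J, 3 months old and labelled as 1 litter, and had received sheep red blood cells 8 days before their spleens were taken. The cells of both groups were sorted as B220+, FAS+, CD38-, CXCR4+ and CD86-. The Cre is driven from the Cγ1 constant region locus, which B cells switch on after activation, so the mutant allele is made in responding B cells and not before. Gene counts do not tell mutant from wild-type Ezh2 transcripts, and the labels do not say how many cells had recombined. The other 8 libraries, of CXCR4- CD86+ centrocytes from the light zone, entered the fit to share the estimate of the spread and served for 1 comparison.

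EZH2 is the catalytic subunit of Polycomb repressive complex 2 (PRC2), which methylates lysine 27 of histone H3. The trimethylated form of this lysine marks silenced genes, many of them with CpG-rich promoters, and the Y641F substitution, in the pocket that holds the lysine, favours the step to trimethylation. Centroblasts express EZH2 at high level while they divide and mutate their antibody genes, and then move to the light zone, where T cells and follicular dendritic cells select among them.

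Levels are given as CPM, the counts scaled to a common library size after TMM normalization, and differences as the log2 fold change of mutant over control with its standard error (SE). A gene is called when its Benjamini-Hochberg adjusted p over all 15240 tested genes is under 0.05 in the edgeR quasi-likelihood test (2-sided). The labels do not say whether each library came from its own mouse, so p values measure the spread between these libraries. The 8 libraries held 36838946 to 44466911 counted reads. By their Y-linked transcripts, the first pair of libraries of each group (1 and 2) was male and the other pair female. The 4 control libraries differed more among themselves than the 4 mutant libraries: GC-rich genes deviated from GC-poor genes, as the difference of the outer quintiles, by −0.901 (log2) in control library 1 up to 0.516 in control library 4, and by −0.153 to 0.307 in the mutant libraries.

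In mutant centroblasts 619 genes rose, 4.06% of those tested, and 976 genes fell, 6.40%. Counts of called members in the gene lists below are to be read against these shares. Lists and members were chosen with earlier results of these data known, so a share above them describes the list and is not a test. At least 2-fold were 140 of the rises and 414 of the falls, and the median difference over all tested genes was 0.01. The library ranges of the groups did not overlap for 969 genes with mutants above (6.36%) and 1221 genes with mutants below (8.01%). In bulk samples, fewer cells of a type and less RNA per cell cannot be told apart. Of the 1595 called genes, 900 were called whichever of the 8 libraries was left out. Without control library 4 the calls were 854 and 1319, and without control library 2 they were 381 and 729. Without mutant library 4 there were 411 rises. The split of 38.8% rises among the calls became 49.4% (1392 rises and 1425 falls) with an offset for GC content and transcript length.

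**Figure D1:**
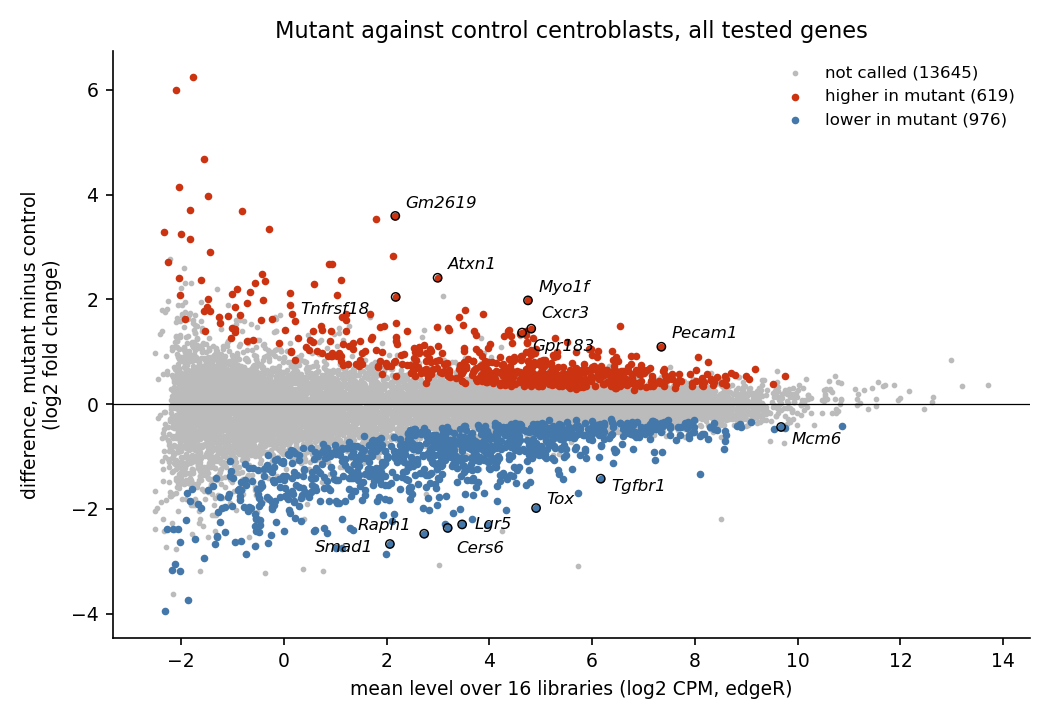
Each point is 1 of the 15240 tested genes, with its mean level over the 16 libraries (log2 CPM) on the horizontal axis and its log2 fold change, mutant over control centroblasts, on the vertical axis. The 976 called falls in blue reach far down at low and middle levels, where Smad1 and Lgr5 lie, while the called rises in red at levels above 2 stay below 4.

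Ezh2 itself was slightly lower in the mutant libraries. It stood at 335, 305, 281 and 236 CPM in control libraries 1 to 4 and at 239.6, 256, 209.8 and 183 CPM in mutant libraries 1 to 4. Control library 4 lay among the mutant values, so the groups overlapped, and the difference was −0.38 ± 0.12, adjusted p = 0.0486. The call was kept in 2 of the 8 fits with a library left out and reached an adjusted p of 0.138 at most. Of the 6 PRC2 core genes, 2 fell (33.3%, against 6.40% of all tested genes) and none rose, with a median of −0.36. Without control library 4 there were 4 falls, and without control library 1 there were none. The other fall was Rbbp7, a histone-binding subunit, at 439, 385, 365 and 369 CPM in controls and 313, 286, 334 and 276 CPM in mutants (−0.37 ± 0.10, adjusted p = 0.0222). Its call ended without control library 1 or mutant library 4, among others. Eed, which binds trimethylated lysine 27, and Suz12, a scaffold subunit, differed by −0.35 ± 0.14 and −0.48 ± 0.23 and did not pass (adjusted p = 0.129 and 0.209).

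Several other chromatin regulators had larger changes than the PRC2 genes. Dnmt3a, which sets new DNA methylation, rose from 19.4 ± 3.87 to 38.7 ± 4.17 CPM (mean ± SD, n = 4), with 1.00 ± 0.14, adjusted p = 0.00022. Its relative Dnmt3b fell from 5.07 ± 0.84 to 2.25 ± 0.414 CPM (−1.17 ± 0.21, adjusted p = 0.00151). These relatives went opposite ways, and the groups overlapped for neither. Tet1, which oxidises methylcytosine, fell from a low level of 0.686 ± 0.135 CPM to 0.171 ± 0.0869 CPM (−1.97 ± 0.40, adjusted p = 0.00346). Uhrf1, which guides maintenance methylation behind the fork, fell by less (−0.47 ± 0.13, adjusted p = 0.0284). Of the 8 tested DNA methylation genes, 1 rose (12.5%) and 3 fell (37.5%). Of 19 genes of PRC1, the partner complex that reads the PRC2 mark, Cbx8 rose (0.60 ± 0.14, adjusted p = 0.00786) and Pcgf5 fell (−0.64 ± 0.15, adjusted p = 0.00962). Each was 5.26% of the list, near the shares of all tested genes. Scmh1, a Polycomb protein outside that list, was among the 15 largest falls at 19, 21.1, 24.2 and 20.2 CPM in controls against 4.01, 4.6, 3.27 and 6.7 CPM in mutants (−2.19 ± 0.21, adjusted p = 8.34e-06).

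Large changes were found in both directions. By the rule used (called, mean level of at least 2 on the log2 CPM scale, no overlap of the groups), the 15 largest ran from −2.67 to −1.98 and included Smad1, Raph1, Cers6, Nbeal1, Lgr5, Map2, Scmh1, Myzap, Abi2, Gnb4, Ahi1, Ndrg1, Tox and Gpm6a. Each of the 15 was called whichever library was left out. The 15 largest rises ran from 3.59 to 1.41 and included Atxn1, Tnfrsf18, Myo1f, Fam169b, Sh3tc1, Ebi3, Ifi27l2a, Pglyrp1, Ffar2, Cxcr3 and Nlrc3.

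Promoter sequences of 3 of these falls and 3 of these rises are shown because CpG-rich promoters are the known seat of Polycomb. Each is the 250 bases before the gene's start in RefSeq (GRCm38.p6), 5′ to 3′ on the gene's strand, with every CpG in capitals. The motif searched was CG, which reads the same on both strands. At least 1 is found in 91.7% of all 27025 such windows, and the median window holds 6. There is 1 window per gene symbol, the first listed where a gene has several. Of the tested genes 9643 (63.3%) have a window, and the shares given here are over all symbols and not over these genes.
Smad1, chr8:79399429-79399678, minus strand: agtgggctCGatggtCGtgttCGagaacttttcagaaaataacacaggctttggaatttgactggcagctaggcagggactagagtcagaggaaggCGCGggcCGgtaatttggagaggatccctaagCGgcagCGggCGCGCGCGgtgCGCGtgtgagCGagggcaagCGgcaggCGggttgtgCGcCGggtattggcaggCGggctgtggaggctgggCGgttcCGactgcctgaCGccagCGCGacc
Raph1, chr1:60566766-60567015, minus strand: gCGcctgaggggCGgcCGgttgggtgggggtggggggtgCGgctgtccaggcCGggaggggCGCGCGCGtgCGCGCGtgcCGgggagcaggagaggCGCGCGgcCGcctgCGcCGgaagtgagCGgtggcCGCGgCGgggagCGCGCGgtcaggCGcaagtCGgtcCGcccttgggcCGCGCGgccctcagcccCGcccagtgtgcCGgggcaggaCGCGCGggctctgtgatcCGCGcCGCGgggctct
Cers6, chr2:68861191-68861440, plus strand: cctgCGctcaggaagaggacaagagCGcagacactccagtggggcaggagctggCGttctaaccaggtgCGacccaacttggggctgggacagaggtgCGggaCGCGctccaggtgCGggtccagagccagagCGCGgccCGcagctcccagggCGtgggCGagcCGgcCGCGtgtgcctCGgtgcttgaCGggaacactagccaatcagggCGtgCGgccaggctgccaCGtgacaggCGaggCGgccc
Cxcr3, chrX:101734148-101734397, minus strand: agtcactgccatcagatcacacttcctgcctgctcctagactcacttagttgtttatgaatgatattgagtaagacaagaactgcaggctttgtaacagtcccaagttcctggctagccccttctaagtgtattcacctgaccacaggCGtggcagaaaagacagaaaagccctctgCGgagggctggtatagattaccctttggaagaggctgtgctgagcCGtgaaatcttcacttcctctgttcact
Tnfrsf18, chr4:156026072-156026321, plus strand: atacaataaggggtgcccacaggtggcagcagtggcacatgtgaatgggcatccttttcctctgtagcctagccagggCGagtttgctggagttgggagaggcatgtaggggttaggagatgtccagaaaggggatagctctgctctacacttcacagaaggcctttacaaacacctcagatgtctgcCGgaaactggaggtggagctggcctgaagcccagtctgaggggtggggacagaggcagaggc
Myo1f, chr17:33555457-33555706, plus strand: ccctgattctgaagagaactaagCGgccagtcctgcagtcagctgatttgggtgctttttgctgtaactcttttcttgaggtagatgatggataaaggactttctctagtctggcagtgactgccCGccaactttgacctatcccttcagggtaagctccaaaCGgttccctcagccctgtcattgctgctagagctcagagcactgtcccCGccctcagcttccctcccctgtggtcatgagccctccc
The windows of the falling genes hold 25 (Smad1), 41 (Raph1) and 23 (Cers6) CpG, and at least 23 are found in 13% of all windows. Those of the rising genes hold 3 (Cxcr3), 2 (Tnfrsf18) and 4 (Myo1f), and at most 4 are found in 44.5%. These 6 genes were picked after their values were seen, and the difference describes them alone. The table holds a window for 73.5% of the rises and 76.6% of the falls, which is under the 80% set for a comparison of whole groups, so that comparison is void and is not given.

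Of 24 tested genes of the TGF-β and BMP pathway 4 fell (16.7%, against 6.40% of all tested genes) and none rose. Without control library 4 there were 7 falls. Smad1, which carries BMP signals to the nucleus, stood at 5.85, 6.35, 8.97 and 6.27 CPM in control libraries and 1.1, 1.26, 0.87 and 1.07 CPM in mutant libraries. The lowest control was over 4 times the highest mutant, and the difference was −2.67 ± 0.21, adjusted p = 1.24e-06. Tgfbr1, the type I TGF-β receptor, stood at 203, 151, 131 and 86.6 CPM in controls and 52.5, 49.9, 65.7 and 44.7 CPM in mutants (−1.42 ± 0.21, adjusted p = 0.000299). The groups did not overlap, and control library 4 was the lowest control. Smad3, which carries TGF-β and activin signals, fell from 15.4 ± 1.6 to 7.42 ± 1.32 CPM (−1.05 ± 0.18, adjusted p = 0.000781). Acvr1b, an activin receptor, fell by less (−0.44 ± 0.14, adjusted p = 0.0471) and kept its call in 3 of the 8 fits with a library left out. Tgfbr2, the type II TGF-β receptor, was 213, 218, 221 and 219.8 CPM in controls and 252, 226, 279 and 288 CPM in mutants, and the difference of 0.26 ± 0.11 did not pass (adjusted p = 0.147).

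In the Wnt and R-spondin list 3 of 25 tested genes fell (12%, against 6.40% of all tested genes) and none rose. Lgr5, the R-spondin receptor known from intestinal stem cells, stood at 31.6, 30.8, 26.4 and 24.7 CPM in controls and 5.35, 5.86, 5.97 and 5.9 CPM in mutants (−2.30 ± 0.17, adjusted p = 8.63e-07). The mutant libraries lay within 1 CPM of each other. Znrf3, the ubiquitin ligase that R-spondin and Lgr receptors hold off Wnt receptors, fell from 5.11 ± 1.19 to 1.65 ± 0.517 CPM (−1.63 ± 0.26, adjusted p = 0.000518). Ryk, an unusual Wnt receptor, fell from 11.1 ± 1.81 to 5.16 ± 1.07 CPM (−1.10 ± 0.19, adjusted p = 0.00115). All 3 calls held whichever library was dropped. Over the list, 13 members had a value above 0 and 12 below.

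**Figure D2:**
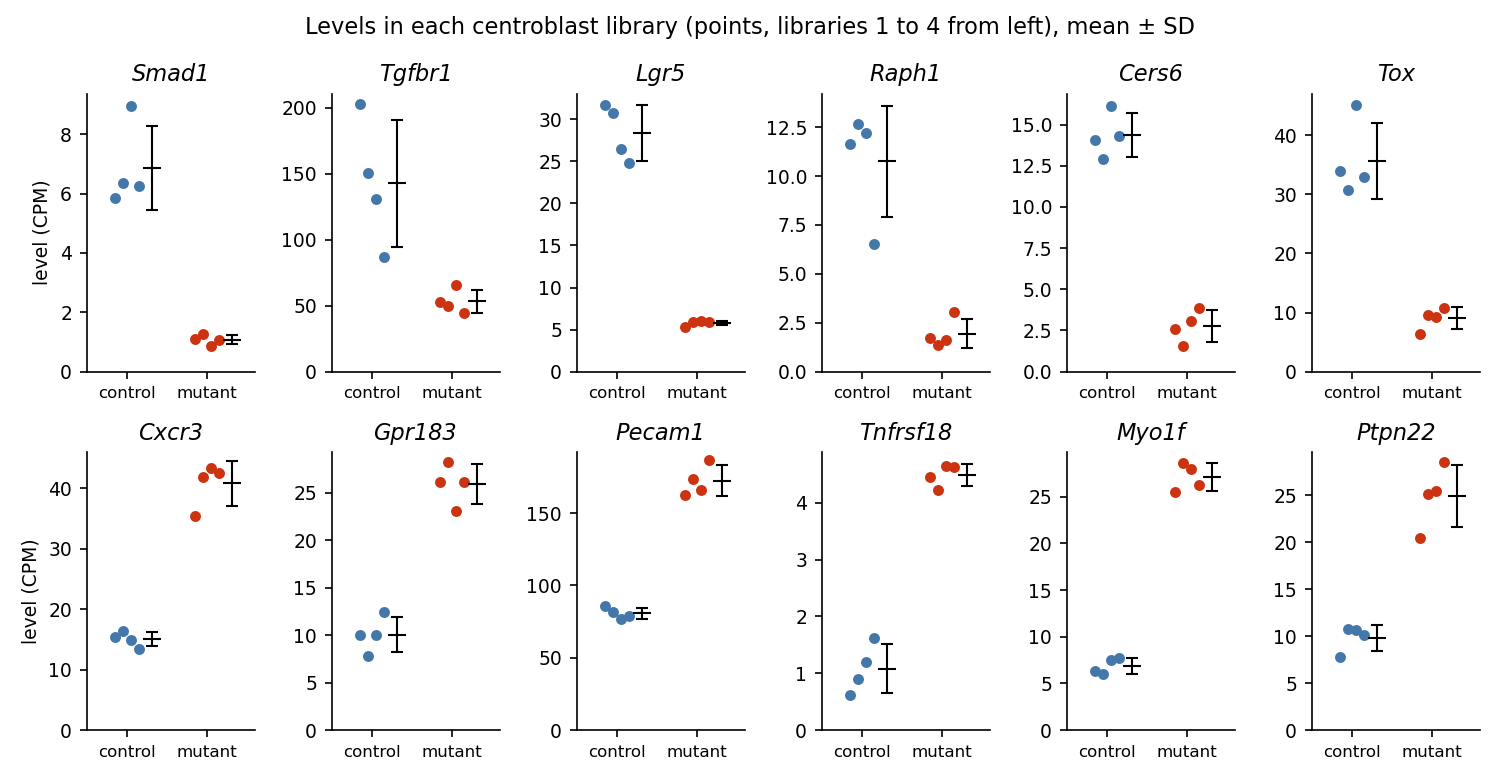
Levels of 12 genes in CPM on linear axes that start at 0, with points for control (blue) and mutant (red) libraries 1 to 4 from left to right and black bars for the mean ± SD. The groups do not overlap for any of the 12 genes, and control library 4 is the lowest control for Tgfbr1 at 86.6 CPM and for Raph1 at 6.53 CPM.

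Genes of the cell skeleton were called in both directions. Raph1, or lamellipodin, which carries actin assembly to the leading edge, stood at 11.6, 12.6, 12.2 and 6.53 CPM in controls and 1.73, 1.37, 1.6 and 3.03 CPM in mutants (−2.48 ± 0.28, adjusted p = 2.37e-05). Of 41 tested actin and myosin genes 6 fell (14.6%, against 6.40% of all tested genes) and 3 rose (7.32%, against 4.06%), and the rises were 1 without control library 1 or 2 or mutant library 1 or 4, 6 without control library 4 and 7 with the offset. Beside Raph1 these falls were the myosins Myo6 (−1.06 ± 0.16, adjusted p = 0.000268), Myo9a and Myo1d, the actin branch stabiliser Cttn (−1.10 ± 0.23, adjusted p = 0.00433) and Enah, which lengthens actin filaments and was below 1 CPM in all libraries. Myo1f, a myosin of immune cells, went the other way, from 6.32, 5.96, 7.47 and 7.71 CPM in controls to 25.4, 28.7, 28 and 26.3 CPM in mutants (1.98 ± 0.14, adjusted p = 8.63e-07). Abi2, a part of the WAVE complex that starts actin branches, fell from 15.4 ± 2.69 to 3.64 ± 0.289 CPM. Of 17 microtubule genes 5 fell (29.4%) and 1 rose (5.88%), and with the offset 7 fell and 3 rose. With 1 library left out, 1 of these genes rose without control library 4 or mutant library 4 and 0 in the other such fits. Map2, which coats microtubules in neurons, stood at 9.21, 8.26, 14.2 and 6.22 CPM in controls and 1.76, 1.94, 2.06 and 2.26 CPM in mutants (−2.24 ± 0.30, adjusted p = 0.000143). Map1a (−1.65 ± 0.26, adjusted p = 0.000473) and the linker Dst (−2.40 ± 0.50, adjusted p = 0.00438) were lower at low level, and Map4, the widespread member, fell from 194 ± 6.46 to 141 ± 16.1 CPM (−0.46 ± 0.10, adjusted p = 0.00747). Among 25 exchange factors for RAC and CDC42, Dock6 (−1.85 ± 0.27, adjusted p = 0.000229) and Dock9 fell and Dock10 rose (0.57 ± 0.16, adjusted p = 0.0314). These shares of 8% lower and 4% higher are near those of all tested genes, and with the offset 2 fell and 4 rose. Dock10 lost its call without control library 3 or mutant library 1, 2 or 3.

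Of 26 tested sphingolipid enzymes 5 fell (19.2%, against 6.40% of all tested genes) and 2 rose (7.69%, against 4.06%), with 5 falls and 6 rises under the offset. The rises were 1 without control library 2 or mutant library 2 and 0 without mutant library 3 or 4. Cers6, which joins a fatty acid to the sphingoid base to make ceramide, stood at 14.1, 12.9, 16.2 and 14.3 CPM in controls and 2.6, 1.56, 3.09 and 3.89 CPM in mutants (−2.37 ± 0.25, adjusted p = 1.64e-05). Sgms1, which turns ceramide into sphingomyelin, fell from 43.7 ± 7.33 to 28.8 ± 1.37 CPM (−0.60 ± 0.13, adjusted p = 0.00463). The ceramidases Acer3 (−1.04 ± 0.25) and Asah2 (−0.86 ± 0.19) and the lysosomal Galc (−1.25 ± 0.33) fell too, with adjusted p of 0.0121, 0.00668 and 0.021. Among the rises was B4galt5 (0.46 ± 0.11, adjusted p = 0.0138), which starts complex glycosphingolipids.

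Of 28 tested transcription factors of the germinal centre 2 fell (7.14%, near the 6.40% of all tested genes) and none rose. Myb, needed for dividing progenitors, fell from 21.7 ± 2.11 to 11.8 ± 1.62 CPM (−0.88 ± 0.15, adjusted p = 0.00108), and Pou2af1, the octamer coactivator, fell from 2863 ± 248 to 2136 ± 255 CPM (−0.42 ± 0.11, adjusted p = 0.0237). Bcl6, the repressor that defines the germinal centre, was 494, 524, 498 and 447 CPM in controls and 568, 455, 448 and 457 CPM in mutants and did not pass (−0.03 ± 0.12, adjusted p = 0.927). Tox, an HMG box factor known from T cells, was not in that list and fell in a much larger measure, from 34, 30.7, 45.1 and 32.9 CPM in controls to 6.4, 9.59, 9.2 and 10.8 CPM in mutants (−1.99 ± 0.18, adjusted p = 3.41e-06). Its relatives Tox2 and Tox4 did not pass. Zeb2, a zinc finger repressor of late B and T cell states, fell from 9.68 ± 3.6 to 3.56 ± 0.33 CPM (−1.44 ± 0.24, adjusted p = 0.000597).

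Among receptors that place B cells in the tissue, 7 of 22 tested rose (31.8%, against 4.06% of all genes) and 1 fell. As the list was chosen with earlier results of these data known, this share describes it only. Cxcr3, which responds to interferon-induced chemokines, stood at 15.4, 16.3, 15 and 13.5 CPM in controls and 35.4, 41.9, 43.4 and 42.5 CPM in mutants (1.44 ± 0.14, adjusted p = 6.5e-06). Gpr183, the oxysterol receptor that draws B cells to the outer follicle, stood at 10, 7.8, 10 and 12.4 CPM in controls and 26.2, 28.3, 23.1 and 26.1 CPM in mutants (1.36 ± 0.16, adjusted p = 3.32e-05). For both, every mutant library was far above every control library. Cnr2, the cannabinoid receptor of B cells, rose from 79 ± 7.45 to 125 ± 12.2 CPM (0.66 ± 0.13, adjusted p = 0.0025). Lpar5 (0.93 ± 0.18), S1pr3 (0.49 ± 0.11) and Gpr18 (0.38 ± 0.09), all receptors for lipids or lipid-like ligands, rose with adjusted p of 0.00283, 0.00561 and 0.00785. Ccr6 rose by 0.89 ± 0.22 with overlapping groups (adjusted p = 0.0152), and P2ry12 fell at low level (−1.79 ± 0.52, adjusted p = 0.0348). S1pr2, which holds cells inside the germinal centre, differed by −0.10 ± 0.12 (adjusted p = 0.67).

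Adhesion molecules moved in both directions, with 6 of 28 tested higher (21.4%, against 4.06% of all tested genes) and 4 lower (14.3%, against 6.40%). Pecam1, or CD31, stood at 86, 81.3, 76.9 and 78.8 CPM in controls and 163, 174, 166 and 187 CPM in mutants (1.09 ± 0.09, adjusted p = 2.76e-06). The controls spanned less than 10 CPM, and every mutant library was above 160 CPM. The tetraspanin Cd82 rose from 106 ± 17.9 to 164 ± 17.4 CPM (0.62 ± 0.12, adjusted p = 0.00225), while the tetraspanin Cd9 fell from 9.37 ± 1.29 to 5.61 ± 0.549 CPM (−0.74 ± 0.16, adjusted p = 0.00513). Alcam, a ligand of CD6 on T cells, fell (−0.75 ± 0.13, adjusted p = 0.00131), as did Itgb1 (−0.45 ± 0.13, adjusted p = 0.031) and its partner chain Itga6 (−0.71 ± 0.21, adjusted p = 0.0352). Without control library 2 the rises of the list were 2, and without control library 1 or mutant library 1 or 2 the falls were 2.

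Light zone genes rose in 5 of 23 tested members (21.7%, against 4.06% of all tested genes) and fell in none, with a median of 0.24. These were Gpr183, Ebi3, Egr3, Ccr6 and Bcl2a1b, and 3 rose without control library 2. Ebi3, a subunit of IL-27 and IL-35, stood at 1.61, 3.05, 3.18 and 4.13 CPM in controls and 11, 8.57, 7.05 and 7.61 CPM in mutants (1.51 ± 0.21, adjusted p = 0.000165), and Egr3, an early response factor, at 2, 2.71, 2.77 and 3.64 and 8.19, 5.59, 4.76 and 4.9 CPM (1.07 ± 0.22, adjusted p = 0.00389). Mutant library 1 was the highest for both. Bcl2a1b, a survival gene with near-identical copies among which reads can be split, rose with 0.71 ± 0.19, adjusted p = 0.021. The gate gene Cd86 was 145 ± 37.7 CPM in controls and 163 ± 23.3 CPM in mutants, and Cd83 was 238 ± 23.2 and 216 ± 26 CPM, so these 2 light zone markers did not pass (adjusted p = 0.624 and 0.498). Of 20 dark zone genes Ccna2 (−0.44 ± 0.12, adjusted p = 0.0198) and Polh (−0.30 ± 0.09, adjusted p = 0.0316) fell, and 18 of the 20 had a value below 0, with a median of −0.27. These called falls were 10% of the list, against 6.40% of all tested genes. Without control library 4 the dark zone falls were 7, without mutant library 1 there were 0, with the GC and length offset there were 10, and DESeq2 called 5.

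Molecules of T cell help and cytokine receptors rose in part. Tnfrsf18, the costimulatory receptor GITR, stood at 0.61, 0.904, 1.19 and 1.63 CPM in controls and 4.46, 4.22, 4.65 and 4.63 CPM in mutants (2.04 ± 0.22, adjusted p = 1.98e-05). The mutant values lay within 1 CPM of each other while the controls differed more than 2-fold. Pdcd1, the inhibitory receptor PD-1, rose from 0.853 ± 0.272 to 1.98 ± 0.615 CPM (1.21 ± 0.28, adjusted p = 0.00929). With Il6ra and Ly9, a SLAM family receptor, 4 of 31 tested T cell contact molecules rose and none fell. These 4 were 12.9%, against 4.06% of all tested genes, and 7 rose without control library 1 or with the offset. Cd40, through which T cells activate B cells, differed by 0.04 ± 0.12 (adjusted p = 0.888). Of 26 cytokine receptor genes 5 rose (19.2%, against 4.06% of all tested genes) and 1 fell (3.85%, against 6.40%), and 9 rose with the offset. Both chains of the IL-10 receptor rose, Il10ra from 70.2 ± 6.71 to 108 ± 8.48 CPM (0.63 ± 0.10, adjusted p = 0.000342) and Il10rb from 18.1 ± 0.481 to 30.8 ± 2.31 CPM (0.76 ± 0.11, adjusted p = 0.000202). The interferon receptor chains Ifnar2 (0.64 ± 0.10, adjusted p = 0.000434) and Ifngr2 (0.39 ± 0.09, adjusted p = 0.00584) rose as well. The chains of the IL-6 receptor went apart: Il6ra, which binds IL-6, rose from 17.4, 17, 18.6 and 15 to 35.5, 27.3, 34 and 31.8 CPM in controls and mutants (0.92 ± 0.13, adjusted p = 0.000167), and Il6st, the shared signalling chain gp130, fell from 4.66, 6.35, 9.15 and 7.53 to 3.12, 2.52, 4.28 and 3.58 CPM (−1.03 ± 0.23, adjusted p = 0.00719). Below these receptors, Socs2 (−1.48 ± 0.35, adjusted p = 0.00943) and Socs5 (−0.89 ± 0.18, adjusted p = 0.00293), feedback inhibitors of cytokine signals, fell.

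Of 46 tested genes that tune the B cell receptor 7 rose (15.2%, against 4.06% of all tested genes) and 2 fell (4.35%, against 6.40%). Ptpn22, a phosphatase that restrains antigen receptor kinases, stood at 7.76, 10.8, 10.6 and 10.1 CPM in controls and 20.5, 25.1, 25.4 and 28.5 CPM in mutants (1.34 ± 0.15, adjusted p = 2.37e-05). Cd5, another restraining molecule, rose at low level (0.97 ± 0.24, adjusted p = 0.0114). The adaptor Sh3bp2 (0.67 ± 0.13, adjusted p = 0.00216), the calcium channel Itpr1 (0.66 ± 0.11, adjusted p = 0.000861) and the calcium-regulated factor Nfatc2 (0.50 ± 0.14, adjusted p = 0.0276) rose, and the kinase Fyn (−0.47 ± 0.13, adjusted p = 0.0231) and the RAS activator Rasgrp1 (−0.43 ± 0.13, adjusted p = 0.0396) fell. The kinases Syk and Btk differed by −0.17 ± 0.11 and 0.08 ± 0.10 and did not pass (adjusted p = 0.379 and 0.701). The rises of this list were 4 without control library 2 or 3 or mutant library 1 or 4, and 12 in DESeq2 and with the offset. Of 18 tested genes of ERK feedback 3 rose (16.7%) and 2 fell (11.1%). Dusp5, a nuclear phosphatase of ERK, fell from 38.5 ± 2.63 to 21.3 ± 3.4 CPM (−0.85 ± 0.12, adjusted p = 0.000168), and Dusp16 fell by less (−0.63 ± 0.12, adjusted p = 0.0017). The rises were Rasal3, which switches RAS off (0.43 ± 0.10, adjusted p = 0.00962), the phosphatase Dusp7 (0.54 ± 0.15, adjusted p = 0.0278), whose libraries overlapped and which did not pass with the offset, and the inhibitor Spry1 (2.08 ± 0.65, adjusted p = 0.0486), below 1 CPM in all libraries. The rises of the list were 1 without control library 1 or 3 or mutant library 1, 3 or 4 and with the centroblast libraries alone, and the falls 5 without control library 4.

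Innate and NF-κB genes rose in small numbers. Nfkb1, which encodes the p50 subunit of NF-κB, stood at 234, 248, 253 and 256 CPM in controls and 370.1, 313, 339 and 339.5 CPM in mutants (0.46 ± 0.10, adjusted p = 0.00444). In all, 5 of 30 tested NF-κB factors and CD40 targets rose (16.7%, against 4.06% of all tested genes) and none fell. Beside Nfkb1 these included Ebi3 and the near-identical survival gene copies Bcl2a1b and Bcl2a1d, whose counts are uncertain. Ebi3 and Bcl2a1b were also counted among the light zone genes, and both copies are counted again among the survival genes below. Without control library 4 there were 8 rises, and without control library 2 or 3 or mutant library 2 there were 3. Of 22 genes of Toll-like receptors and the proteins that signal behind them 4 rose (18.2%) and 1 fell (4.55%). The rises were 2 without control library 3 or mutant library 1, 3 or 4. No receptor of this list was called higher: the rises were signalling proteins, and they include a factor also counted in the interferon list below. Of the kinases behind these receptors, Irak2 rose from 18.4 ± 0.853 to 30.3 ± 3.33 CPM (0.72 ± 0.10, adjusted p = 0.000181) and Irak4 from 34.5 ± 3.33 to 47.9 ± 3.04 CPM (0.47 ± 0.09, adjusted p = 0.00286), while Tlr6 fell (−0.47 ± 0.13, adjusted p = 0.0232). Interferon response genes had a median of 0.48, with 6 of 32 higher (18.8%) and 1 lower (3.12%). Ifi27l2a, an interferon-induced gene, stood at 40.8, 63.1, 58.7 and 88.1 CPM in controls and 135, 146, 256 and 167 CPM in mutants (1.49 ± 0.31, adjusted p = 0.00427). Ifit2, also induced by interferon, went the other way (−1.35 ± 0.35, adjusted p = 0.0177). The interferon rises were 2 without mutant library 1, 3 or 4 and 3 without control library 1 or 3 or with the centroblast libraries alone.

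Replication genes had lower values in mutants, each by a small amount. Of 49 tested, 13 fell (26.5%, against 6.40% of all genes) and none rose, and 45 of the 49 had a value below 0, with a median of −0.30. Mcm6, a subunit of the replicative helicase, stood at 1223, 1122, 1073 and 1155 CPM in controls and 825, 781, 883 and 888 CPM in mutants (−0.44 ± 0.10, adjusted p = 0.0108). Cdc6, which loads the helicase, stood at 126, 125, 121 and 138 and 91.6, 82.2, 92.7 and 98.3 CPM (−0.49 ± 0.08, adjusted p = 0.00103), and Rrm2, the small subunit of ribonucleotide reductase, at 434, 399, 376 and 406 and 308, 272, 323 and 287 CPM (−0.44 ± 0.09, adjusted p = 0.00325). In all 3 the lowest control was above the highest mutant. Without control library 2 the falls were 8, with the centroblast libraries fitted alone 7, in DESeq2 21 and with the offset 28. Of 13 E2F and DP factors, which switch these genes on or off, 4 fell (30.8%, against 6.40% of all tested genes), and 7 with the offset. The 4 were E2f8 (−0.60 ± 0.11, adjusted p = 0.0017), E2f7 (−0.45 ± 0.11, adjusted p = 0.0117), Tfdp1 (−0.39 ± 0.08, adjusted p = 0.00271) and Tfdp2. Tfdp2 fell most, from 18.5 ± 2.82 to 7.89 ± 1.92 CPM (−1.23 ± 0.16, adjusted p = 0.000111). Each of the 4 kept its call with every library left out.

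Genes that mend double-strand breaks fell in 11 of 45 tested members (24.4%, against 6.40% of all genes) and rose in none. Their median was −0.24. Brca1, which acts in repair by recombination, stood at 139.8, 137, 130.2 and 108 CPM in controls and 102, 84.2, 88 and 75.8 CPM in mutants (−0.56 ± 0.10, adjusted p = 0.00181), and Mdc1, which binds marked chromatin at breaks, fell from 179 ± 11.9 to 125 ± 15.2 CPM (−0.53 ± 0.11, adjusted p = 0.00476). Without control library 4 the falls of this list were 18, without control library 2 they were 6, without control library 3 or mutant library 2 they were 7, and with the centroblast libraries alone 6. Of 24 genes of somatic hypermutation and mismatch repair 5 fell (20.8%). These included Msh6 (−0.53 ± 0.11, adjusted p = 0.00374), which binds mismatches, and the exonuclease Exo1 (−0.49 ± 0.09, adjusted p = 0.00208). Without control library 1 or 2 or mutant library 1 the falls of that list were 2, without mutant library 3 or 4 they were 3, and without control library 4 they were 8.

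Mitosis genes had the same median, −0.30, and 45 of 48 values below 0, but 5 were called: Ccna2, Nek2, Prc1, Top2a and Tpx2. In control library 4, Top2a was 793 CPM against 1210 to 1240 CPM in the other controls. Without that library 19 mitosis genes were called, with the offset 22 and in DESeq2 11. Without mutant library 1 or 2, 1 was called, without control library 3, 2, and without control library 2 or mutant library 4, 3. Mki67, the antigen of cycling cells, was 1562, 1894, 2017 and 725 CPM in controls and 1610, 1345, 966 and 789 CPM in mutants, with overlapping groups and a difference that did not pass (−0.40 ± 0.26, adjusted p = 0.413). Among the inhibitors of the cycle, Cdkn2a, the p16 and p19 locus that Polycomb silences in many cells, rose at low level from 1.22, 0.955, 1.55 and 2.27 CPM to 2.91, 3.26, 2.24 and 2.89 CPM (0.91 ± 0.27, adjusted p = 0.0352). Cdkn1b, which encodes p27, rose from 18.5 ± 5.32 to 30.4 ± 4.09 CPM (0.72 ± 0.20, adjusted p = 0.0246), and Cdkn2c, which encodes p18, fell (−0.45 ± 0.12, adjusted p = 0.0274). Each of these 3 calls was lost in at least 5 of the 8 fits with a library left out. Myc was 24.7 ± 6.65 CPM in controls and 29.1 ± 5.37 CPM in mutants (adjusted p = 0.525), and its relative Mycl rose at low level (1.01 ± 0.25, adjusted p = 0.0125).

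**Figure D3:**
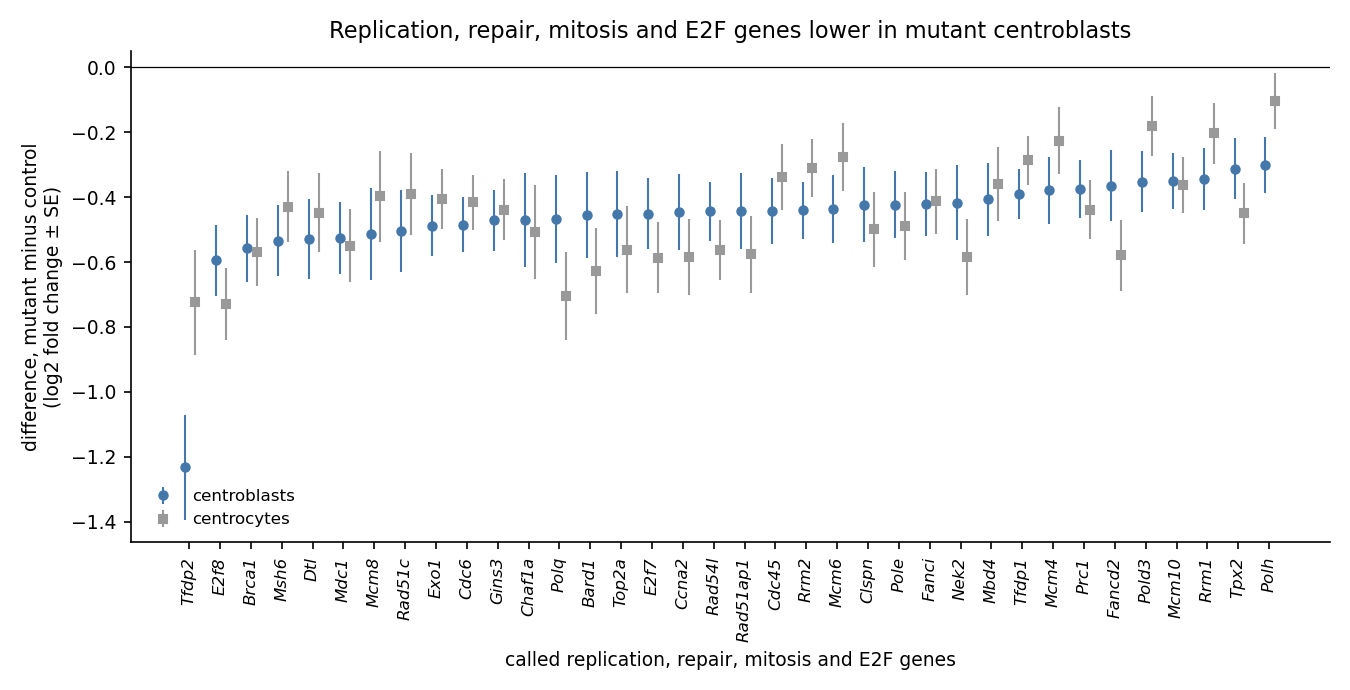
Called replication, repair, mitosis and E2F genes, with the log2 fold change ± SE of mutant over control in centroblasts (blue circles) and in centrocytes (grey squares). Tfdp2 stands apart at −1.23 in centroblasts, the others lie between −0.60 and −0.30, and in centrocytes every one of the genes plotted also has a value below 0.

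Genes that start apoptosis fell in 4 of 18 tested members (22.2%, against 6.40% of all tested genes) and rose in none. Bcl2l11, which encodes BIM, stood at 105, 84.8, 83.9 and 94.6 CPM in controls and 53.6, 44.7, 69.6 and 63.6 CPM in mutants (−0.67 ± 0.15, adjusted p = 0.00556), and Pmaip1, which encodes NOXA, at 24.8, 21.9, 16.8 and 14.1 and 11.9, 12.6, 11.4 and 8.02 CPM (−0.82 ± 0.19, adjusted p = 0.0095). Both kept their calls with each library left out in turn. Among 27 targets of p53, 5 fell and 1 rose: Sesn1, a stress sensor of the mTOR pathway, fell from 30.1, 31.1, 33 and 27.4 to 14.7, 13.8, 17 and 15.8 CPM (−0.99 ± 0.11, adjusted p = 3.39e-05), with Zmat3 (−0.82 ± 0.12, adjusted p = 0.000306), Trp53inp1, Ei24 and Pmaip1, and Plk3 rose (0.82 ± 0.17, adjusted p = 0.00405). These falls were 18.5% of the p53 list and the rise 3.7%, and with the centroblast libraries alone 3 p53 targets fell. Of 12 tested survival genes of the BCL2 and IAP families 2 rose (16.7%) and 1 fell (8.33%). Bcl2l2, which encodes BCL-W, fell (−0.76 ± 0.17, adjusted p = 0.00586). Bcl2a1b (0.71 ± 0.19, adjusted p = 0.021) and Bcl2a1d (1.00 ± 0.21, adjusted p = 0.00465), near-identical copies of the survival gene A1 whose counts are uncertain for that reason, rose. The call of Bcl2a1b was lost without control library 2 or 3 or mutant library 2. Bcl2 was 3.42 ± 0.457 CPM in controls and 3.91 ± 0.783 CPM in mutants (adjusted p = 0.597).

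Fate genes moved in single members. The 3 falls of the plasma cell list were 15% of its members, against 6.40% of all tested genes. Of 20 plasma cell genes Cd93, a surface protein kept by plasma cells, fell from 9.54 ± 1.37 to 3.17 ± 1.03 CPM (−1.59 ± 0.26, adjusted p = 0.000542), and Ell2 and Slamf7 fell by less (1 fall in all without mutant library 4). Prdm1, which encodes the plasma cell regulator BLIMP1, was 2, 3.87, 5.69 and 4.57 CPM in controls and 2.78, 1.97, 3.39 and 3.42 CPM in mutants and did not pass (−0.48 ± 0.37, adjusted p = 0.488). Igha, the IgA constant gene, stood at 191, 273, 329 and 199 CPM in controls and 51.6, 72.2, 130.1 and 141 CPM in mutants (−1.33 ± 0.37, adjusted p = 0.0262), without overlap. Ighm was 8722 ± 2009 and 11136 ± 1034 CPM (adjusted p = 0.209), and the lambda constant genes Iglc2 (0.80 ± 0.14, adjusted p = 0.00104) and Iglc3 (0.48 ± 0.15, adjusted p = 0.0477), whose near-identical reads can be split, rose. Of 24 memory B cell genes 3 rose (Cxcr3, Gpr183 and Ccr6) and 2 fell (Zeb2 and Nt5e, the ecto-enzyme CD73, with −0.55 ± 0.13, adjusted p = 0.00962). The memory rises were 12.5% of that list, against 4.06% of all tested genes, and the falls 8.33%, near the 6.40% of all.

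Developmental regulators, the usual targets of PRC2, were nearly silent. Of 99 listed, 12 had enough counts to be tested, and a member can pass the filter through the group in which it is higher alone. Hoxc9 was listed at 0.0555, 0, 0.0254 and 0 CPM in controls and 0.289, 0.493, 0.206 and 0.193 CPM in mutants, and Isl1 at 0.361, 0.181, 0.127 and 0.387 and 1.97, 1.31, 1.01 and 0.964 CPM. Hoxb13 and Pax6 were above their controls too, with no mutant above 2 CPM, and the called differences were 2.31 ± 0.48, adjusted p = 0.00393 for Isl1, 1.78 ± 0.51, adjusted p = 0.0318 for Hoxb13 and 1.44 ± 0.44, adjusted p = 0.0425 for Pax6. Sox5, an SRY box factor, fell from 20.4 ± 3.16 to 14.2 ± 1.57 CPM (−0.53 ± 0.15, adjusted p = 0.0303). With 1 library left out, Pax6 kept its call in 1 of 8 fits and Hoxb13 and Sox5 in 3 of 8 each, and Sox5 was not called with the offset (adjusted p = 0.103).

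Several large families did not pass. None of 85 cytosolic ribosomal protein genes was called (median 0.19), and 1 of 74 oxidative phosphorylation genes rose (median 0.22), with 70 of the 74 above 0 and 5 called without control library 4. None of 15 MHC class II presentation genes was called (median 0.29), but 7 rose without control library 4 and 5 with the offset. None of 22 MHC class I genes, 27 cholesterol synthesis genes, 26 genes of the unfolded protein response or 40 ribosome biogenesis genes was called by edgeR, though 3, 2, 3 and 7 of the class I, cholesterol, unfolded protein and biogenesis genes rose with the offset. Without control library 4, 1 cholesterol gene rose and 2 fell. The share of all counts held by ribosomal protein genes was 2.33% ± 0.51 in controls and 2.67% ± 0.501 in mutants (SD, n = 4, exact permutation test over 70 splits, 2-sided, p = 0.4). Immunoglobulin genes (2.65% ± 0.494 and 2.81% ± 0.221, exact permutation p = 0.571), mitochondrial genes (1.74% ± 0.803 and 1.67% ± 0.457, exact permutation p = 0.857) and replication-dependent histone genes (0.00631% ± 0.00071 and 0.00551% ± 0.000574, exact permutation p = 0.2) did not pass either, and adjusted over the 4 classes the lowest p was 0.761. Ribosomal protein genes have many near-identical pseudogene copies, so their counts are uncertain.

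**Figure D4:**
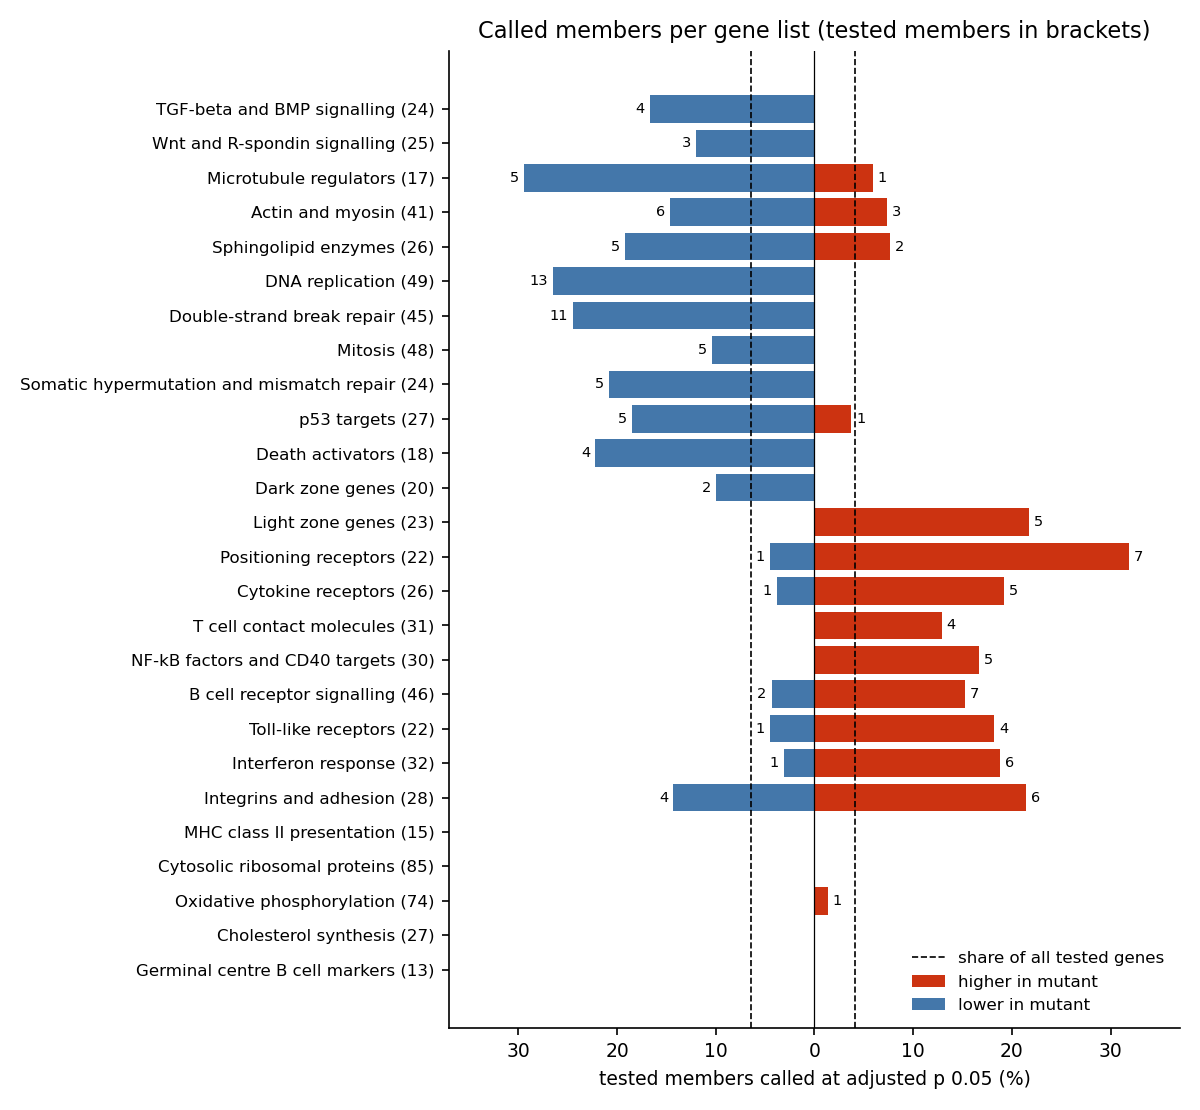
For 26 gene lists, the share of tested members called higher (red, right) or lower (blue, left) in mutant centroblasts, with the number called beside each bar and the number tested in brackets. Dashed lines mark the shares among all tested genes, 4.06% higher and 6.40% lower, and of the 26 lists shown positioning receptors reach furthest right and microtubule regulators furthest left.

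The sorted cells carried the markers of their label. All 13 germinal centre B cell markers were tested, none was called, and their summed level was 8810 to 12700 CPM in controls and 9690 to 11900 CPM in mutants. Among the sort genes Fas was 137 ± 23.1 and 135 ± 29.7 CPM, Cxcr4 444 ± 17 and 401 ± 20.9 CPM and Cd38 43.1 ± 12.7 and 49.6 ± 13.5 CPM in controls and mutants, and none passed. Markers of other cells were low but not all level. The 20 macrophage markers summed to 80.4 to 135 CPM in controls and 109 to 245 CPM in mutants, and 1 of 19 tested rose, Mpeg1, from 51.4 ± 4.83 to 91.1 ± 27.9 CPM (0.83 ± 0.20, adjusted p = 0.011). The 15 T cell markers summed to 265 to 359 CPM in controls and 391 to 521 CPM in mutants. Of 11 tested, Cd2, from 161 ± 15.1 to 257 ± 54.3 CPM (0.67 ± 0.14, adjusted p = 0.00449), Lat (0.66 ± 0.18, adjusted p = 0.0217) and Zap70 (1.26 ± 0.33, adjusted p = 0.0188) rose, and Lck was 137 ± 29.5 and 185 ± 13.7 CPM (adjusted p = 0.0644). Without control library 1 or 2 or mutant library 1 there was 1 such rise. Cd2 and Lck had by far the highest levels of the 15 T cell markers. Of the T cell receptor genes, Cd3d, Cd3e, Cd3g, Trbc1 and Trbc2 were at most 0.593 CPM in any library. Cd247 reached at most 0.749 CPM and Trac at most 1.24 CPM. The 10 dendritic cell markers summed to 148 to 196 and 212 to 302 CPM, with Flt3 (0.64 ± 0.15, adjusted p = 0.00815) and Cst3 (0.48 ± 0.14, adjusted p = 0.0422) higher of 6 tested. The 13 stromal markers summed to 3.33 to 6.78 CPM in controls and 2.13 to 2.68 CPM in mutants, with Mfge8 lower (−1.23 ± 0.26, adjusted p = 0.0047) and Col1a2, Pdgfra, Ccl19 and Pdpn at 0 in all 8 libraries, as were the neutrophil genes Elane and Mpo. The 20 naive B cell genes summed to 3320 to 3750 CPM in controls and 4100 to 4300 CPM in mutants, with Fcmr (0.54 ± 0.11, adjusted p = 0.00265), Vpreb3 (0.53 ± 0.11, adjusted p = 0.00444) and Bank1 higher and Sesn3 lower. The part of these cells in the rises of receptors was not tested.

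Transcripts of the genes that fell were longer in the median. The median longest transcript of the 976 falls was 4015.5 bases against 2836.5 for the 619 rises and 2773.5 for the uncalled genes, with lengths known for at least 96.8% of each group. The median gene span was 43636.5, 20800 and 14955.5 bases in the same order, and the median GC content of the transcripts 47.8%, 52.1% and 49.5%. With the offset for GC content and length 1541 of the 1595 calls were made again. Beyond that offset, the part of length and GC content in the direction of change was not tested.

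The genotype effect differed between males and females for 41 genes (0.269% of those tested), of which 39 had the higher effect in males. None of the 41 was among the 1595 genes called over all centroblast libraries, and all 1595 had the same sign in both sexes. A gene is called over the libraries of both sexes together, where effects of opposite sign cancel. Both counts therefore follow in part from the calling and do not measure how far the sexes share the effect. H1fx, a linker histone gene, had an effect of 1.10 ± 0.26 in males and −1.68 ± 0.26 in females (adjusted p of the difference = 0.0155). Romo1, a mitochondrial protein gene, had 1.67 ± 0.24 and −0.43 ± 0.23 (adjusted p = 0.0318). The count was 0 with the centroblast libraries alone and 17 with the offset. Without control library 2 it was 946, without control library 3 it was 30, and without any other single library it was 0 or 1. The GC deviation moved with sex in the controls, at −0.901 and −0.318 in the male libraries and 0.102 and 0.516 in the female libraries, and sex and GC deviation cannot be told apart there.

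Each change was next compared with that in the 8 centrocyte libraries. The labels do not say whether centroblasts and centrocytes of the same number came from 1 mouse, and the fit takes all libraries as independent. Sex by transcripts matched between same-numbered libraries of both cell types, and Xist was 3.97 CPM (here of the library's unscaled total) in mutant centroblast library 1 and 5.27 CPM in mutant centrocyte library 1, against 0.310 to 0.754 CPM in the other male libraries. Deviations from the group means correlated between same-numbered libraries at −0.0059, 0.395, 0.452 and 0.134 in controls and 0.327, 0.263, 0.324 and 0.316 in mutants. So the effect in centrocytes may not be independent of that in centroblasts. Of the 619 rises 611 had a value above 0 there and 441 (71.2%) were called, and of the 976 falls 972 had a value below 0 and 771 (79%) were called. The shares of all tested genes that were called or had the same sign in centrocytes are not given here. How far these values exceed them is therefore left unstated. No gene passed the test of a difference in effect between the cell types in edgeR (0%, 429 genes at an unadjusted p under 0.05), and DESeq2 passed 1, Vav3 (adjusted p = 0.0162). With same-numbered libraries of both cell types as a block, a fit chosen after seeing the data, edgeR again passed 0 genes (623 at an unadjusted p under 0.05). Vav3, an exchange factor below the B cell receptor, differed by 0.38 ± 0.27 in centroblasts and −1.51 ± 0.27 in centrocytes. Next in order came Myo1f, with 1.98 ± 0.14 and 1.11 ± 0.13, and, 2 places below, Lgr5, with −2.30 ± 0.17 and −3.35 ± 0.19. So the rise of Myo1f was larger in value in centroblasts and the fall of Lgr5 larger in centrocytes, without passing (adjusted p = 0.999 for each).

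**Figure D5:**
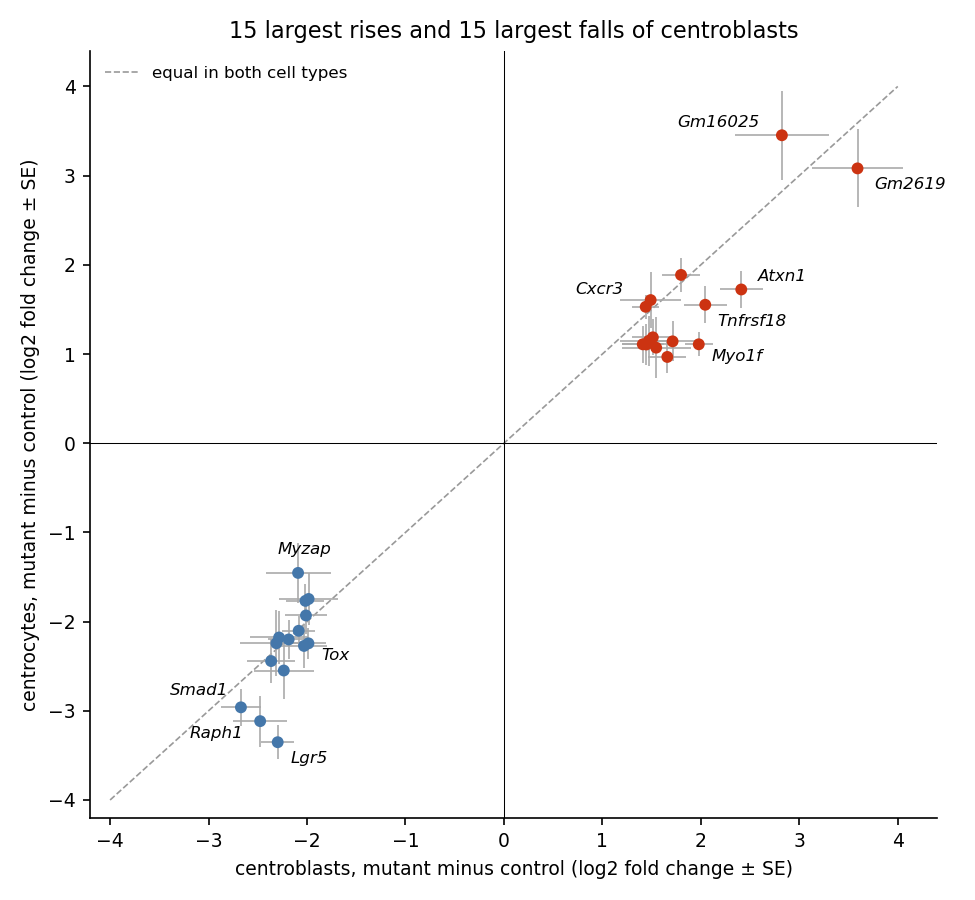
The 15 largest rises (red) and 15 largest falls (blue) of centroblasts, with log2 fold changes ± SE of mutant over control in centroblasts on the horizontal axis and in centrocytes on the vertical axis, and a dashed line of equal effects. All 30 genes lie in the same direction in both cell types, and Lgr5 at −2.30 and −3.35 and Myo1f at 1.98 and 1.11 lie off the line.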

How the data were processed

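RNA of sorted spleen cells was sequenced from TruSeq libraries after extraction in Trizol, per the labels. The authors deposited raw counts per gene. Per the submitters' processing notes the tools were Trim Galore, cutadapt, STAR 2.5.3a and featureCounts 1.4.5-p1 of Subread, with the mm10 build; strand and multi-mapping settings are not given in the sources used here. Of 49584 listed genes 32901 had a count, and filterByExpr kept 15240. The counts of all 16 libraries were fitted in edgeR 4.0.16 (limma 3.58.1, R 4.3.3) by the quasi-likelihood test with TMM factors, 1 mean per group and 12 residual degrees of freedom, with Benjamini-Hochberg adjustment; the procedure was tested on simulated data. CPM per library use TMM-scaled sizes. Alternatives were DESeq2 1.42.0, its size factors in edgeR, fits without the filter or with genes averaging 1 CPM or more, the centroblast libraries alone, a replicate block, sex as a covariate, immunoglobulin genes left out, each library left out, same-numbered libraries of both cell types as a block and an offset for GC content and transcript length (natural spline with 4 degrees of freedom, GENCODE annotation). Some members of the lists are counted but not reported here by name. Members and lists were chosen with earlier results of these data known. Named genes are the 15 largest changes in each direction, called members of the lists, up to 2 uncalled members per list, the sort genes and the lowest p values of the tests between cell types and sexes. The uncalled genes Bcl2, Bcl6, Btk, Cd40, Eed, Myc, Prdm1, Syk and Xist were chosen after their values were seen. So were the uncalled T cell receptor genes Cd247, Cd3d, Cd3e, Cd3g, Trac, Trbc1 and Trbc2.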

Additional observations from a re-analysis of the deposited data

Results flagged for a closer look

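In 20 of 372 groups of 4 libraries (5.38%), over 186 named genes, 1 library lay far from the other 3 by Dixon's test at the 95% level. That level would flag about 1 in 20 groups if the groups were independent, and genes measured in the same libraries are not. Why these libraries lay apart was not tested. Control centroblast library 1 was above the other 3 for Fas (172 CPM against 123 to 129 CPM). Control centroblast library 1 was below the other 3 for Cttn (7.71 CPM against 13.5 to 14.7 CPM), Nfatc2 (40.5 CPM against 48.1 to 48.7 CPM) and Vpreb3 (104 CPM against 145 to 146 CPM). Control centroblast library 2 was above the other 3 for Nlrc3 (2.58 CPM against 2.33 to 2.36 CPM). Control centroblast library 3 was above the other 3 for Smad1 (8.97 CPM against 5.85 to 6.35 CPM). Control centroblast library 4 was above the other 3 for Cd3d (0.593 CPM against 0.0762 to 0.155 CPM). Control centroblast library 4 was below the other 3 for Prc1 (154 CPM against 194 to 198 CPM), Raph1 (6.53 CPM against 11.6 to 12.6 CPM), Top2a (793 CPM against 1210 to 1240 CPM) and Tpx2 (339 CPM against 368 to 372 CPM). Mutant centroblast library 1 was above the other 3 for Bcl6 (568 CPM against 448 to 457 CPM). Mutant centroblast library 2 was above the other 3 for Bcl2a1b (37.9 CPM against 26.5 to 26.8 CPM), Bcl2a1d (6.22 CPM against 4 to 4.2 CPM) and Fas (179 CPM against 114 to 124 CPM). Mutant centroblast library 3 was above the other 3 for Ffar2 (7.07 CPM against 4.55 to 4.71 CPM) and Tlr6 (22.2 CPM against 16.8 to 17.4 CPM). Mutant centroblast library 4 was above the other 3 for Syk (1550 CPM against 1290 to 1300 CPM). Mutant centroblast library 4 was below the other 3 for Ell2 (40.2 CPM against 55.9 to 58 CPM) and Top2a (674 CPM against 855 to 872 CPM). 

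The genotype effect differed between males and females by an interaction test for 41 genes. The effect on H1fx was 2.79 (log2) higher in males. The effect on Romo1 was 2.09 (log2) higher in males. The cause was not tested.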

How the results depend on the processing

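Rises numbered 620 with DESeq2's size factors and 585 with no filter on low counts, against 619, and falls 972 and 923 against 976. With the centroblast libraries fitted alone 354 genes rose and 702 fell, and with the GC and length offset 1392 rose and 1425 fell. DESeq2 called 852 rises and 1191 falls. Leaving out 1 library gave 381 to 854 rises and 697 to 1319 falls, the highest of both without control library 4. The test between cell types gave 0 genes in edgeR under every alternative run and 1 in DESeq2. The difference between sexes ran from 0 to 946 genes with 1 library left out, and was 1082 with no filter, 17 with the offset and 0 with the centroblast libraries alone. The cause of these shifts was not tested. Of the 212 called genes named by rule or list, 106 kept their call under every setting and 0 changed sign. Among the 158 called genes that the text names, 113 kept their call with each library left out in turn. The calls of Tpx2, Pax6, Bank1, Cst3, Ezh2, Cdkn1b, Cdkn2a, Itga6, Top2a, Uhrf1, P2ry12, Sesn3, Iglc3, Hk2, Tlr6, Polh, Nfatc2, Hoxb13, Cdkn2c, Rasgrp1, Sox5, Acvr1b, Dusp7 and Spry1 were kept in 1 to 3 of the 8 such fits. Those of Lat, Nek2, Igha, Ei24, Ccna2, Itgb1, Dock10, Pou2af1, Zap70, Ell2, Bcl2a1b, Galc, Ccr6, Fyn, Ifit2, Slamf7, Rbbp7, Myo1d, B4galt5, Enah and Mpeg1 were kept in 4 to 7. Of these genes Cst3, Dusp7, Lat, Sox5 and Tpx2 were not called with the offset. The 35 calls lost without a filter came with more genes tested.

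Equal numbers did not pair control with mutant centroblast libraries: their deviations correlated at 0.0943, 0.0911, −0.0278 and 0.344. Not every library correlated best with its own number. With the replicate number as a block 609 genes rose and 979 fell. With the block in the centroblast libraries alone there were 272 rises and 599 falls, and with the block and the GC and length offset 1430 and 1488.

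Of 200 genes changed in simulated counts of the same depth, 18% were recovered at 1.5-fold, 53.5% at 2-fold and 86% at 4-fold, so small changes that did not pass may have been missed.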

Other observations

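Single members of further lists moved by large amounts. Aldoc, the aldolase form best known from brain, stood at 7.68, 7.25, 8.89 and 7.87 CPM in controls and 20.7, 18.7, 17.1 and 19.2 CPM in mutants (1.26 ± 0.13, adjusted p = 1.92e-05), without overlap. Of 26 tested glycolysis genes it rose together with Hk2 (0.44 ± 0.13, adjusted p = 0.0446) and none fell. These 2 rises were 7.69% of the list, against 4.06% of all tested genes. Without control library 1, or with the centroblast libraries alone, 1 rose, without mutant library 2 there were 3 rises, and with the offset 5. Among genes of G protein signalling that confine B cells, Gna15, a Gq-class subunit of blood cells, rose (0.70 ± 0.16, adjusted p = 0.00724). Its widespread relative Gnaq fell from 24.7, 22, 17.6 and 13.2 to 10.4, 7.29, 9.02 and 9.64 CPM (−1.09 ± 0.21, adjusted p = 0.00271). The other 19 of 21 were not called, so each direction held 4.76% of the list, near the shares of all tested genes. Atxn1, a transcriptional corepressor gene, stood at 1.36, 1.7, 0.991 and 1.21 CPM in controls and 6.27, 7.01, 7.65 and 7.11 CPM in mutants (2.41 ± 0.22, adjusted p = 3.43e-06).

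A stretch with a repeat cluster on chromosome 1, from 84990638 to 85342615 (GRCm38), held 16 tested genes. Of these 9 rose (56.2%, against 4.06% of all tested genes) and none fell. Gm2619 stood at 0.194, 0.439, 1.07 and 0.619 CPM in controls and 5.38, 8.3, 8.68 and 5.9 CPM in mutants (3.59 ± 0.46, adjusted p = 9.47e-05), and Gm7609 at 4.41, 6.94, 4.57 and 5.42 and 14.6, 18.1, 22.2 and 19.5 CPM (1.80 ± 0.19, adjusted p = 1.95e-05). Their copies are near-identical, so the counts of each copy are uncertain. This stretch was chosen after its values were seen, so its share describes it only. A gene with very few counts in controls can pass the count filter through the mutant libraries alone, and is then tested only because it is higher there. Within 10 Mb of Ezh2 on chromosome 6, 20 of 109 tested genes were called (18.3%), 9 higher and 11 lower, against 11.5% of the whole chromosome and 10.5% of all genes.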
